A study of Mus musculus with 15 samples.

Results

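The tumour necrosis factor (TNF) superfamily is a set of cell-surface and secreted ligands that signal through a matching superfamily of receptors. Its genes were taken as those whose RefSeq symbol, reached through each probe's transcript accession, begins with Tnfsf (ligands) or Tnfrsf (receptors). The arrays held probes for 29 such genes, 11 ligands and 18 receptors, among 20145 named genes. Of these, 24 members, 9 ligands and 15 receptors, were bright enough to enter the test, which covered 13390 genes. The founding ligand Tnf and members with other names, such as Fas and Cd40, fall outside the symbol rule and are described at the end as companion lists.

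Most ligands of the superfamily are made as trimers anchored in the membrane, and some are cut off by proteases to act at a distance. Receptors with a death domain can start caspase-dependent apoptosis, whereas the others bind TRAF adaptors and mainly activate NF-kB and kinase cascades, and decoy receptors bind ligand without a full signal. Liver macrophages are known both as a source of these ligands, TNF and TRAIL among them, and as cells that respond to them, and several pairs (GITR, OX40, CD137) are best known from contacts between antigen-presenting cells and T cells.

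The arrays measured total RNA of mouse liver macrophages sorted as F4/80-high cells and split by the integrin CD11c. CD11c-positive NASH cells (MC4R_WD CD11c-positive, 5 arrays) and CD11c-negative NASH cells (MC4R_WD CD11c-negative, 5 arrays) came from male MC4R-KO mice, which lack the melanocortin 4 receptor that restrains feeding, after 20 weeks on Western diet begun at 8 weeks of age. These livers are labelled NASH, non-alcoholic steatohepatitis. Wild-type cells (WT_SD, 5 arrays) were CD11c-negative F4/80-high macrophages from normal livers of male wild-type mice on standard diet, for which neither age nor duration of the diet is stated. Genotype and diet differ together between the NASH and wild-type groups and cannot be told apart, and the 2 NASH populations share both. RNA was pooled from 7 to 9 mice, and nothing states that the 5 arrays of a group came from separate pools, so that p-values measure only the spread between these arrays, which may be technical.

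Levels are given as log2 of the processed signal relative to each array's 75th percentile, so that a level of 0 is as bright as that percentile. The 75th percentile lay between 358.6 and 562.4 intensity units, and between 45.8% and 58% of spots were well above background. Arrays within a group spread by a median SD of 0.07 per gene in CD11c-positive NASH cells, 0.0888 in CD11c-negative NASH cells and 0.0751 in wild-type cells on this scale. Arrays of 1 group correlated at 0.993 to 0.999 over all genes, and no pair from different groups exceeded 0.989. The sort gene Itgax (CD11c) averaged 7.29, 5.93 and 4.21 in CD11c-positive NASH, CD11c-negative NASH and wild-type cells, and Adgre1 (F4/80) averaged 7.31, 7.74 and 7.34. The Kupffer cell gene Clec4f averaged 7.29, 8.08 and 9.30 in the same order, and Csf1r, the receptor that macrophages need for survival, averaged 8.97, 9.34 and 9.29. The Mc4r probe was not well above background on a single one of the arrays, so that it does not check the genotype labels.

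Of the 29 members, 22 have promoter windows in RefSeq (GRCm38.p6), 26 windows in all, each running from 250 bases before a transcription start to 50 after it. Below are the windows of Tnfsf18, the member with the largest rise, of the adjacent genes Tnfrsf18 and Tnfrsf4, both lowest in CD11c-negative NASH cells, and of a start of Tnfrsf9 whose window matched more than 1 of the motifs searched. The positions are chr1:161494407-161494706 on the plus strand for Tnfsf18, chr4:156026072-156026371 on the plus strand for Tnfrsf18, chr4:156013445-156013744 on the plus strand for Tnfrsf4 and chr4:150927749-150928048 on the plus strand for Tnfrsf9. Each is printed 5′ to 3′ in the direction of transcription, and capitals mark motif matches.
Tnfsf18: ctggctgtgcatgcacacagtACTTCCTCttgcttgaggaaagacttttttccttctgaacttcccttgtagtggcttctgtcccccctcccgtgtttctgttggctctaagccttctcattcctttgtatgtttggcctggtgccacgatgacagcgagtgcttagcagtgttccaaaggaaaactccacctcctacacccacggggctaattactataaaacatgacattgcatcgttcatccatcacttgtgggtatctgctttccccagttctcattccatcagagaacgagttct
Tnfrsf18: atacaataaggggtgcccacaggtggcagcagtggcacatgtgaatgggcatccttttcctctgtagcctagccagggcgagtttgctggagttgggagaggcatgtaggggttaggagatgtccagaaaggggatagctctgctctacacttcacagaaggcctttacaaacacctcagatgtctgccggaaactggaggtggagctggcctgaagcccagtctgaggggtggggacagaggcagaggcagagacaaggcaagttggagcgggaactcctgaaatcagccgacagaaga
Tnfrsf4: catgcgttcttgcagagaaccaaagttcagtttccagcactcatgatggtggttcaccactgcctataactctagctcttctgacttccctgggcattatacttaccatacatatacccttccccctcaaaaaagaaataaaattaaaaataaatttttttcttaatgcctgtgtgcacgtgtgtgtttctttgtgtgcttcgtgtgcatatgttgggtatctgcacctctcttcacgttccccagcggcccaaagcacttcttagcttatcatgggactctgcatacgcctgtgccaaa
Tnfrsf9: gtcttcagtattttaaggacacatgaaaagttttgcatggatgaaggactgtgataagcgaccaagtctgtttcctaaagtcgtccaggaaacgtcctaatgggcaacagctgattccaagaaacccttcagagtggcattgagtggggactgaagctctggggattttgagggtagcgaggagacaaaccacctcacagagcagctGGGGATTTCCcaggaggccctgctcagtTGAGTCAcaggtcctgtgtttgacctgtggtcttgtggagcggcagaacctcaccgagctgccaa
The motifs were searched as letters on both strands, with N for any base. The NF-kB motif (GGG, any 2 bases, TTTCC) was found in 2 of the 26 windows and in 1.63% of the 32851 promoter windows of all genes. The AP-1 motif TGANTCA was found in 5 of the 26 windows against 7.81% of all windows, and the interferon regulatory factor motif (GAAA, any 2 bases, GAAA) in 4 of the 26 against 3.44%. Windows of 1 gene can overlap, and the AP-1 matches in 2 overlapping windows of Tnfsf13b are the same site. The PU.1 motif GAGGAAGT, after a factor central to macrophage identity, was found in 1 of the 26 windows, that of Tnfsf18, 229 bases before the start and on the minus strand, and in 3.2% of all windows. In the Tnfrsf9 window the NF-kB match began 43 bases and the AP-1 match 15 bases before the start, and they share no bases. The Tnfrsf18 and Tnfrsf4 windows hold none of these letters, which is a statement about these windows alone.

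Most of the family differed between NASH and wild-type macrophages. In CD11c-negative NASH cells against wild-type cells, 14 of the 24 tested members rose, 8 fell and 2 did not pass the test (limma, Benjamini-Hochberg adjusted p under 0.05), so that 91.7% were called against 76.8% of all 13390 genes tested, of which 48.3% rose and 28.5% fell. In CD11c-positive NASH cells against wild-type cells, 14 rose, 7 fell and 3 did not pass, 87.5% against 77.6% of all genes, of which 51.4% rose and 26.3% fell. Between the NASH populations, CD11c-positive against CD11c-negative, 10 rose, 7 fell and 7 did not pass, 70.8% against 53.1% of all genes, of which 29.9% were higher and 23.2% lower. A member enters the test through the group in which it is bright, so that these shares describe the tested members and do not set the family apart. The comparisons share arrays, and their values are given side by side for that reason.

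Most ligands rose against wild-type cells, while receptors went both ways. All 9 tested ligands passed in CD11c-negative NASH cells against wild-type cells, 7 higher and 2 lower, with a median log2 change of 0.52, while of 15 receptors 7 rose, 6 fell and 2 did not pass, with a median of 0.06. The median over all genes was 0.13. The ligands were again 7 higher and 2 lower in CD11c-positive NASH cells against wild-type cells, with a median of 0.65, and the receptors 7 higher, 5 lower and 3 not passing, with a median of 0.20 against 0.16 over all genes. Within NASH the order turned: 3 ligands were higher in CD11c-positive cells, 4 were lower and 2 did not pass (median -0.04), whereas 7 receptors were higher, 3 were lower and 5 did not pass (median 0.22, against 0.01 over all genes). With quantile normalization the all-gene median in CD11c-negative NASH against wild-type cells moved to -0.00 and that of the members to 0.15, against 0.13 and 0.30 here, and Tnfsfm13 counted among the lower ligands. With normexp background correction, described below, the median of all members within NASH was 0.03 in place of 0.17, against 0.01 over all genes. Tnfsf8, counted as higher within NASH, became -0.01 with normexp, and the other probe of Tnfsf12, counted as lower, gave 0.17. The difference between ligands and receptors was not tested.

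Changes of at least 2-fold were more frequent among the tested members than among all genes against wild-type cells, a description that was not tested. It depends on the background correction. With normexp, an alternative given below, fewer members reached 2-fold against wild-type cells, and the share of all genes at 2-fold was not computed there. In CD11c-negative NASH cells against wild-type cells 5 members rose by that much and 4 fell, 9 of 24 in all, against 5.18% and 6.22% of all genes, or 11.4% in either direction. Against wild-type cells, 6 rose and 4 fell by that much in CD11c-positive NASH cells, 10 of 24 in all, where 6.65% and 7.02% of all genes did, or 13.7% in either direction. Between the NASH populations 1 rose, Tnfrsf18, and 1 fell, Tnfrsf17, against 1.66% and 1.19% of all genes, 2.85% in all. The arrays of the compared groups did not overlap for 19, 19 and 13 members in CD11c-negative NASH against wild-type, CD11c-positive NASH against wild-type and CD11c-positive against CD11c-negative NASH cells, while 64.1%, 69.3% and 39.5% of all genes did not overlap.

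**Figure D1:**
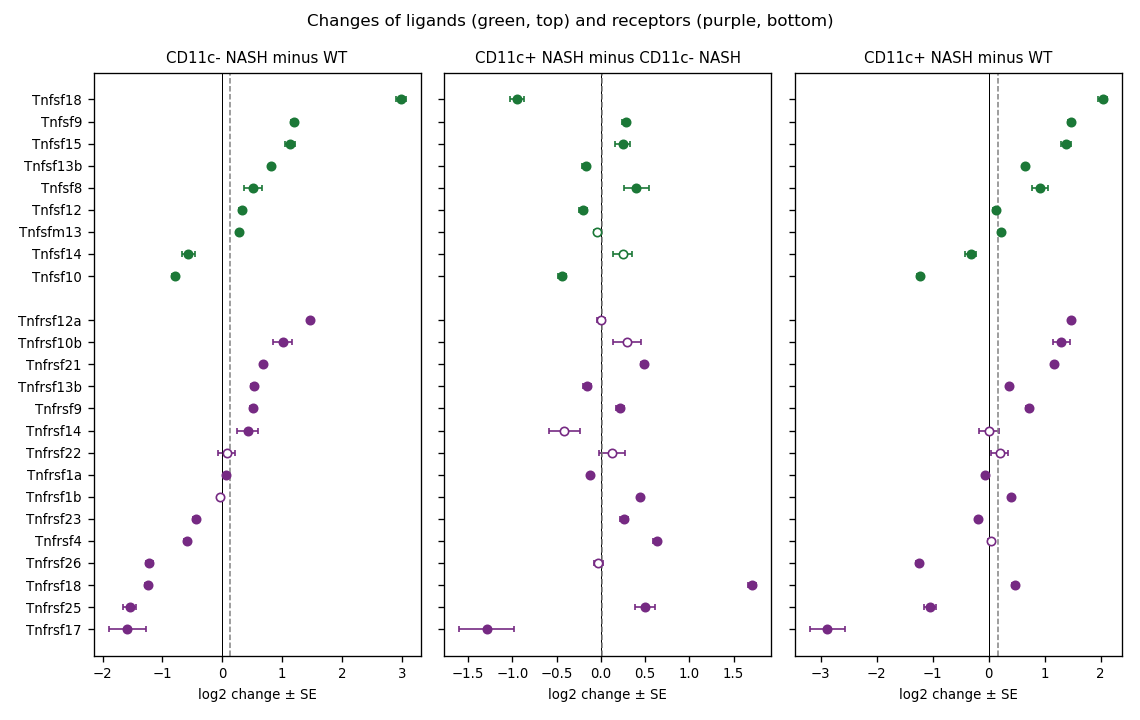
Log2 change ± SE of each tested ligand (green, upper block) and receptor (purple, lower block) in the 3 comparisons, 5 arrays per group. Filled points passed the test (adjusted p under 0.05), open points did not, and the dashed grey line is the median over all 13390 genes. Most ligands lie right of that line against wild-type cells, Tnfsf18 farthest at 2.98 and 2.04, while receptors spread to both sides, and Tnfrsf18 stands farthest right between the NASH populations at 1.71.

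Tnfsf18, which encodes GITR ligand, a T cell costimulator, was the member with the largest rise in both NASH populations. Its levels were -2.02, -2.01, -1.84, -1.95 and -2.00 in CD11c-positive NASH cells, -0.91, -0.99, -1.12, -1.02 and -1.07 in CD11c-negative NASH cells, and -4.22, -4.21, -3.83, -3.92 and -3.84 in wild-type cells. The groups form 3 separate bands, with CD11c-negative NASH cells highest and wild-type cells lowest, and the wild-type probe was well above background on only 3 of 5 arrays. The log2 change was 2.98 ± 0.0784 (SE, n = 5 arrays per group, limma adjusted p = 1.12e-13) in CD11c-negative NASH cells against wild-type cells, and 2.04 ± 0.0784 (limma adjusted p = 5.9e-12) in CD11c-positive NASH cells. CD11c-positive cells were lower than CD11c-negative cells within NASH (-0.95 ± 0.0784, limma adjusted p = 1.65e-07). With normexp background correction, which adds an offset of 50 intensity units, these changes were 1.61, 0.84 and -0.77, and all of them still passed. On slide 1 alone and slide 2 alone the change of CD11c-negative NASH against wild-type cells was 3.08 and 2.83.

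Markers of neutrophils, when summed, took the same order of groups as Tnfsf18. The summed level of the neutrophil list, in multiples of the 75th percentile and with 7 of 8 markers on the array and above background, ranged over 193 to 199 in CD11c-positive NASH cells, 436 to 471 in CD11c-negative NASH cells and 134 to 145 in wild-type cells. Mpo, which encodes myeloperoxidase of neutrophil granules, averaged 1.71, 3.96 and -1.62 in the same order of groups. Of the 7 markers, 6 rose in each NASH population against wild-type cells. Csf3r, the brightest of them in wild-type cells (6.97), fell by 0.40 in both and did not pass within NASH (0.01). The part of these cells in the Tnfsf18 result was not tested. For every result here, fewer cells of a type and less RNA per cell cannot be told apart in pooled RNA.

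Tnfsf9, the ligand of the T cell receptor CD137, also rose in both NASH populations. It had levels of 0.77, 0.83, 0.83, 0.92 and 0.80 in CD11c-positive NASH cells, 0.60, 0.58, 0.45, 0.51 and 0.63 in CD11c-negative NASH cells, and -0.61, -0.65, -0.76, -0.59 and -0.58 in wild-type cells. No array of any group overlapped another group, CD11c-positive cells being highest. The log2 change was 1.19 ± 0.0434 in CD11c-negative and 1.47 ± 0.0434 in CD11c-positive NASH cells against wild-type cells (limma adjusted p = 4.32e-12 and 3.09e-13), and 0.28 ± 0.0434 between the NASH populations (8.77e-05).

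Tnfsf15 encodes TL1A, a ligand of death receptor 3 that enhances T cell responses. Its levels were -1.52, -1.54, -1.45, -1.31 and -1.44 in CD11c-positive NASH cells, -1.86, -1.74, -1.87, -1.54 and -1.49 in CD11c-negative NASH cells, and -3.03, -2.89, -2.77, -2.68 and -2.80 in wild-type cells. Both NASH populations lay apart from wild-type cells, and they overlapped each other. The changes against wild-type cells were 1.14 ± 0.0829 in CD11c-negative and 1.38 ± 0.0829 in CD11c-positive NASH cells (limma adjusted p = 1.05e-08 and 9.61e-10), or 0.63 and 0.71 with normexp. The difference of 0.25 between the NASH populations (limma adjusted p = 0.0217) lost its call with normexp (0.08), on slide 2 alone (0.11) and without CD11c-negative replicate 1 or 3 or CD11c-positive replicate 4 (0.20 to 0.21).

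Tnfsf13b, which encodes the B cell survival factor BAFF, was 0.33, 0.26, 0.31, 0.35 and 0.28 in CD11c-positive NASH cells, 0.58, 0.46, 0.41, 0.44 and 0.50 in CD11c-negative NASH cells, and -0.26, -0.43, -0.35, -0.35 and -0.31 in wild-type cells. The 3 groups did not overlap, with CD11c-negative NASH cells highest. The rise was 0.82 ± 0.0371 in CD11c-negative and 0.65 ± 0.0371 in CD11c-positive NASH cells (limma adjusted p = 4.79e-11 and 5.62e-10), and CD11c-positive cells were lower within NASH (-0.17 ± 0.0371, limma adjusted p = 0.00134), a difference that kept its size on slide 1 alone (-0.19) but not its call (0.0608).

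The other ligands that rose did so by less or from dim probes. Tnfsf8, the CD30 ligand, ranged from -2.82 to -2.57 in CD11c-positive NASH cells, -3.48 to -2.82 in CD11c-negative NASH cells and -3.86 to -3.07 in wild-type cells, and was well above background on 5, 3 and 2 arrays. It rose by 0.92 ± 0.146 in CD11c-positive NASH cells against wild-type cells (limma adjusted p = 4.39e-05), and by 0.23 with normexp. Its change in CD11c-negative NASH cells was 0.52 ± 0.146 (0.00518), or 0.24 with normexp, and it lost its call on slide 2 alone (0.63). Its change within NASH, 0.40 ± 0.146 (0.032), became -0.01 with normexp, and it lost its call on slide 2 alone (0.15), with no filter (0.40) and without CD11c-negative replicate 1, 2 or 3 or CD11c-positive replicate 1, 3 or 5 (0.30 to 0.40).

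Tnfsf12, which encodes TWEAK, a cytokine linked to tissue repair and fibrosis, rose by 0.33 ± 0.0462 in CD11c-negative NASH cells against wild-type cells (limma adjusted p = 1.14e-05). Its other probe gave 0.55 there but moved the opposite way within NASH, 0.17 against -0.20, so that no direction within NASH is given for it. In CD11c-positive NASH cells against wild-type cells its probes gave 0.13 and 0.72, and quantile normalization gave -0.01 for the brighter probe. Tnfsfm13, a read-through transcript of the adjacent genes Tnfsf12 and Tnfsf13, changed by 0.27 and 0.23 in CD11c-negative and CD11c-positive NASH cells against wild-type cells, and by -0.08 in both with quantile normalization, so that its direction depends on the scaling. No probe is assigned to Tnfsf13 (APRIL) itself, whose transcript lies within the read-through gene.

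Tnfsf10 and Tnfsf14 were the 2 ligands that fell. Tnfsf10 encodes TRAIL, an inducer of apoptosis through death receptors. It had levels of -0.27, -0.23, -0.17, -0.16 and -0.23 in CD11c-positive NASH cells, 0.28, 0.10, 0.19, 0.25 and 0.32 in CD11c-negative NASH cells, and 0.93, 1.17, 1.00, 0.97 and 1.01 in wild-type cells. The groups did not overlap, wild-type cells being highest and CD11c-positive NASH cells lowest. The change was -0.79 ± 0.048 in CD11c-negative and -1.23 ± 0.048 in CD11c-positive NASH cells against wild-type cells (limma adjusted p = 1.37e-09 and 7.24e-12), and -0.44 ± 0.048 within NASH (2.96e-06).

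Several marker lists took the same order of groups as Tnfsf10. Sinusoidal endothelial markers, with 8 of 8 above background, summed to 123 to 127 in CD11c-positive NASH cells, 187 to 197 in CD11c-negative NASH cells and 315 to 342 in wild-type cells. Their gene Stab2, a scavenger receptor, averaged 5.41, 5.55 and 6.46 in the same order of groups. Hepatocyte markers, with 6 of 6 above background, summed to 26.1 to 28.5, 35.2 to 39.2 and 81.8 to 90.3 in the same order. By gene, 7 of the 8 endothelial markers fell in CD11c-negative NASH against wild-type cells, and Kdr rose (0.44). Of the 6 hepatocyte markers 4 fell there, Cyp2e1 rose (0.38) and Apoa1 did not pass (-0.0053). The part of either cell type in the Tnfsf10 result was not tested.

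Tnfsf14 encodes LIGHT, a ligand of HVEM and of the lymphotoxin beta receptor. It ranged from -1.47 to -1.11 in CD11c-positive NASH cells, -1.66 to -1.16 in CD11c-negative NASH cells and -1.15 to -0.73 in wild-type cells. It fell by 0.57 in CD11c-negative NASH cells (SE 0.104, limma adjusted p = 0.000176; with normexp by 0.34) and by 0.32 in CD11c-positive NASH cells (0.0117), a call that was lost with quantile normalization (-0.26, 0.06). The ligands Tnfsf11 (RANKL) and Tnfsf4 (OX40 ligand) were not well above background on any array and were not tested.

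**Figure D2:**
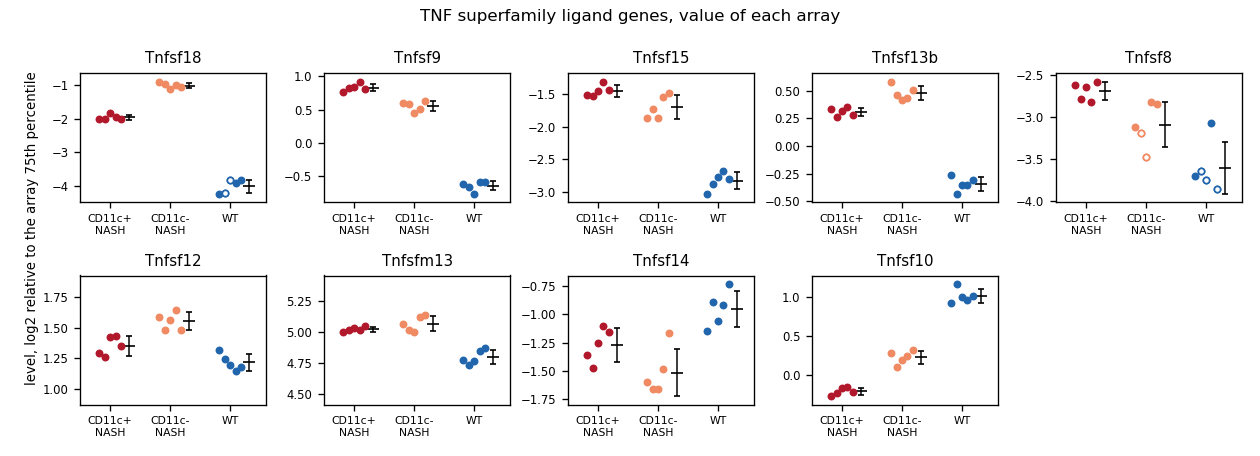
Level of each tested ligand on every array, log2 relative to the array's 75th percentile, in CD11c-positive NASH (red), CD11c-negative NASH (orange) and wild-type cells (blue); bars are the mean ± SD of 5 arrays and open circles are arrays not well above background. Tnfsf18, Tnfsf9, Tnfsf15 and Tnfsf13b sit above wild-type cells in both NASH populations without overlap, and Tnfsf10 sits below.

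Among the receptors with a death domain, Tnfrsf21 and Tnfrsf10b rose and Tnfrsf25 fell against wild-type cells. Tnfrsf21 encodes death receptor 6. Its levels were 2.14, 2.15, 2.20, 2.22 and 2.23 in CD11c-positive NASH cells, 1.72, 1.70, 1.63, 1.72 and 1.75 in CD11c-negative NASH cells, and 1.00, 0.95, 0.97, 1.10 and 1.09 in wild-type cells. The 3 groups lay apart, with CD11c-positive cells highest. Tnfrsf21 rose by 0.68 ± 0.0353 in CD11c-negative and 1.17 ± 0.0353 in CD11c-positive NASH cells against wild-type cells (limma adjusted p = 2.13e-10 and 3.92e-13), and by 0.48 ± 0.0353 within NASH (4.16e-08).

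Tnfrsf10b encodes the mouse death receptor for TRAIL. It had levels of -0.37, -0.49, -0.40, -0.35 and -0.02 in CD11c-positive NASH cells, -0.61, -0.64, -0.62, -0.77 and -0.47 in CD11c-negative NASH cells, and -1.55, -1.56, -1.02, -2.01 and -1.98 in wild-type cells. Wild-type arrays spread widely and still lay below every NASH array, while the NASH populations overlapped. The rise was 1.01 ± 0.155 in CD11c-negative and 1.30 ± 0.155 in CD11c-positive NASH cells (limma adjusted p = 3.37e-05 and 2.25e-06), with 0.76 and 0.95 on slide 1 alone and 1.38 and 1.74 on slide 2 alone.

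Tnfrsf25 encodes death receptor 3, the receptor of TL1A. It had levels of -1.84, -1.96, -1.97, -1.95 and -1.97 in CD11c-positive NASH cells, -2.35, -2.68, -2.72, -1.92 and -2.50 in CD11c-negative NASH cells, and -0.92, -0.93, -0.86, -0.89 and -0.84 in wild-type cells. Both NASH populations lay below wild-type cells, and 1 CD11c-negative array reached the CD11c-positive ones. The change was -1.55 ± 0.113 in CD11c-negative and -1.05 ± 0.113 in CD11c-positive NASH cells (limma adjusted p = 1.09e-08 and 7.39e-07), the first being -0.91 with normexp. The difference of 0.50 ± 0.113 within NASH (0.00197) lost its call with normexp (0.14) and on slide 2 alone (0.25).

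The receptors of TNF itself showed small differences. Tnfrsf1a, the death-domain TNF receptor found on most cells, ranged over 5.61 to 5.67 in CD11c-positive NASH cells, 5.71 to 5.80 in CD11c-negative NASH cells and 5.70 to 5.72 in wild-type cells. Its called changes of 0.06, -0.12 and -0.06 in CD11c-negative NASH against wild-type, CD11c-positive against CD11c-negative NASH and CD11c-positive NASH against wild-type cells were not called by its other probe (-0.00, -0.07 and -0.07), and quantile normalization turned the first to -0.35. That first change also lost its call without wild-type replicate 1 or 3 or CD11c-negative replicate 4 or 5 (0.05). In all, 12 of 28 alternatives did not keep the call and direction of the first change, 1 that of the second and 4 that of the third. Tnfrsf1b, the TNF receptor typical of immune cells, was 2.38, 2.34, 2.39, 2.39 and 2.37 in CD11c-positive NASH cells, 1.89, 1.95, 1.89, 2.00 and 1.93 in CD11c-negative NASH cells, and 1.96, 1.91, 2.02, 1.98 and 1.99 in wild-type cells. CD11c-positive cells lay above both other groups, which overlapped. Tnfrsf1b was higher in CD11c-positive than CD11c-negative NASH cells by 0.45 ± 0.0282 (limma adjusted p = 9.26e-09) and than wild-type cells by 0.40 ± 0.0282 (5.54e-09, and 0.20 with quantile normalization). In CD11c-negative NASH against wild-type cells it gave -0.04 (limma adjusted p = 0.194). That last change ranged from -0.20 to -0.02 over the alternatives and was called in 1 of them.

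Receptors that costimulate T cells did not move together. Tnfrsf18 and Tnfrsf4 dipped in the CD11c-negative population, Tnfrsf9 rose in both NASH populations, and the 2 probes of Tnfrsf14 differed. Tnfrsf18, which encodes GITR, had levels of 0.44, 0.49, 0.42, 0.60 and 0.44 in CD11c-positive NASH cells, -1.21, -1.17, -1.37, -1.20 and -1.22 in CD11c-negative NASH cells, and -0.10, 0.07, -0.02, 0.03 and 0.06 in wild-type cells. The 3 groups were far apart compared with their spread, with CD11c-negative NASH cells lowest. It was higher by 1.71 ± 0.0463 in CD11c-positive than in CD11c-negative NASH cells (limma adjusted p = 7.31e-13), a 3.27-fold difference and the 86th largest rise of 13390 genes. Against wild-type cells it fell by 1.24 in CD11c-negative NASH cells (SE 0.0463, 5.6e-12) and rose by 0.47 in CD11c-positive NASH cells (2.74e-07). On slide 1 alone and slide 2 alone the difference within NASH was 1.72 and 1.69.

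Tnfrsf4, which encodes OX40 and lies next to Tnfrsf18 on chromosome 4 with no protein-coding gene between them, took a similar course. It was 0.30, 0.20, 0.33, 0.28 and 0.31 in CD11c-positive NASH cells, -0.29, -0.40, -0.35, -0.29 and -0.39 in CD11c-negative NASH cells, and 0.31, 0.14, 0.24, 0.25 and 0.31 in wild-type cells. CD11c-positive NASH and wild-type arrays overlapped, and CD11c-negative NASH arrays were below both. The change was 0.63 ± 0.0389 within NASH (limma adjusted p = 6.98e-09) and -0.59 ± 0.0389 in CD11c-negative NASH against wild-type cells (3.13e-09), and CD11c-positive NASH against wild-type cells gave 0.04 ± 0.0389 (0.398).

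Summed markers of dendritic cells and NK cells were lowest in the same group as Tnfrsf18, Tnfrsf4 and Tnfrsf25. The dendritic cell list summed to 102 to 112 in CD11c-positive NASH cells (8 of 8 markers above background), 44.9 to 50.6 in CD11c-negative NASH cells (7 of 8, Xcr1 not above background) and 79.3 to 88.4 in wild-type cells (8 of 8). Its gene Flt3, a cytokine receptor of dendritic cells, averaged 2.57, -1.78 and 1.36 in the same order of groups. The NK and innate lymphoid list, 7 of 7 above background in each group, summed to 18.5 to 19.6 in CD11c-positive NASH, 13 to 13.9 in CD11c-negative NASH and 17.4 to 17.9 in wild-type cells, and Ncr1, which encodes the NK receptor NKp46, was above background on 4, 1 and 5 arrays. Of these 7 markers 4 fell in CD11c-negative NASH against wild-type cells, and Nkg7, the brightest, did not pass (-0.00086). Prf1 (0.38) and Eomes (0.37) rose there. Within NASH 5 were higher in CD11c-positive cells and 0 were lower. The T cell list, 12 of 12 above background, summed to 25.1 to 28.4 in CD11c-positive NASH, 22.8 to 27.9 in CD11c-negative NASH and 37.6 to 40.1 in wild-type cells. By gene, 8 of its 12 markers fell in CD11c-negative NASH against wild-type cells (median -0.96), while Cd4 (0.65) and Il7r (0.40) rose. In CD11c-positive against CD11c-negative NASH cells 8 were higher and 1 was lower (median 0.53). The T cell receptor chain gene Cd3e averaged 1.95, 2.21 and 2.28 in CD11c-positive NASH, CD11c-negative NASH and wild-type cells and passed in neither of these comparisons, though it fell by 0.33 in CD11c-positive NASH against wild-type cells (limma adjusted p = 0.0189). The part of these cells in the receptor results was not tested.

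Tnfrsf9, which encodes the costimulatory receptor CD137, was 5.00, 5.01, 4.82, 4.91 and 4.91 in CD11c-positive NASH cells, 4.83, 4.67, 4.70, 4.67 and 4.69 in CD11c-negative NASH cells, and 4.30, 4.27, 4.19, 4.18 and 4.09 in wild-type cells. Both NASH populations were above wild-type cells, and they met at 1 array each. It rose by 0.50 ± 0.049 in CD11c-negative and 0.72 ± 0.049 in CD11c-positive NASH cells (limma adjusted p = 2.58e-07 and 4.06e-09), or by 0.17 and 0.42 with quantile normalization, and was 0.22 ± 0.049 higher in CD11c-positive cells within NASH (0.00188). Its other probe was well above background on 3 CD11c-positive NASH arrays and 0 of the rest, and was not kept. Tnfrsf14, which encodes HVEM, the receptor of LIGHT, overlapped in all comparisons. It rose by 0.43 ± 0.179 in CD11c-negative NASH cells (limma adjusted p = 0.0423), but the other probe gave -0.08 (0.432) and the call was lost without wild-type replicate 1, 4 or 5, CD11c-negative replicate 1, 2 or 3 or CD11c-positive replicate 4 (0.35 to 0.45).

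Tnfrsf12a, which encodes Fn14, the receptor of TWEAK, rose most among the receptors. Its levels were 1.20, 1.18, 1.25, 1.26 and 1.25 in CD11c-positive NASH cells, 1.25, 1.15, 1.13, 1.28 and 1.32 in CD11c-negative NASH cells, and -0.20, -0.26, -0.34, -0.27 and -0.14 in wild-type cells. The NASH populations overlapped fully and lay well above wild-type cells. The rise was 1.47 ± 0.0432 in both CD11c-negative and CD11c-positive NASH cells (limma adjusted p = 3.79e-13 and 2.75e-13), and within NASH the difference was 0.00 ± 0.0432 (0.955).

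The receptors of BAFF and APRIL went opposite ways. Tnfrsf17 encodes BCMA, best known for the survival of plasma cells. It had levels of -4.38, -5.54, -4.35, -4.36 and -4.52 in CD11c-positive NASH cells, -3.74, -3.91, -2.06, -3.39 and -3.61 in CD11c-negative NASH cells, and -1.72, -1.80, -1.68, -1.63 and -1.93 in wild-type cells. No groups overlapped, though 1 CD11c-negative array came close to wild-type cells, and the probe was well above background on 3, 4 and 5 arrays. The change was -1.59 ± 0.311 in CD11c-negative and -2.88 ± 0.311 in CD11c-positive NASH cells (limma adjusted p = 0.000298 and 7.34e-07), or -0.79 and -1.44 with normexp. The difference of -1.29 ± 0.311 within NASH (0.00291) was -0.65 with normexp, -1.73 on slide 1 alone (0.0537) and -0.91 on slide 2 alone, and without CD11c-negative replicate 3 it was -0.97, short of 2-fold.

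B and plasma cell markers were likewise highest in wild-type cells. Their list summed to 22.8 to 25.6 in CD11c-positive NASH cells and 62.1 to 70.4 in wild-type cells, with 6 of 7 markers above background and Pax5 not, and to 38.9 to 46.1 in CD11c-negative NASH cells with 7 of 7. The part of these cells in the Tnfrsf17 result was not tested. Tnfrsf13b, which encodes TACI, a receptor of BAFF and APRIL on B cells, was -0.56 to -0.44 in CD11c-positive NASH cells, -0.41 to -0.26 in CD11c-negative NASH cells and -1.07 to -0.79 in wild-type cells. It rose by 0.53 ± 0.049 in CD11c-negative and 0.37 ± 0.049 in CD11c-positive NASH cells (limma adjusted p = 1.46e-07 and 6.1e-06), and the -0.16 within NASH (0.0141) was not called on either slide alone (-0.11 and -0.22). Its other probe was near background and not kept, with averages of -4.48, -4.26 and -4.04 in CD11c-positive NASH, CD11c-negative NASH and wild-type cells.

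Tnfrsf26, Tnfrsf22 and Tnfrsf23 lie side by side on chromosome 7, and the last 2 encode mouse decoy receptors of TRAIL. Tnfrsf26 was -0.89, -1.10, -0.97, -0.93 and -0.98 in CD11c-positive NASH cells, -1.02, -0.88, -1.10, -0.83 and -0.88 in CD11c-negative NASH cells, and 0.26, 0.20, 0.28, 0.29 and 0.33 in wild-type cells. The NASH populations overlapped each other and lay below wild-type cells. The log2 change was -1.25 ± 0.0523 in CD11c-positive and -1.22 ± 0.0523 in CD11c-negative NASH cells against wild-type cells (limma adjusted p = 1.6e-11 and 2.73e-11). Tnfrsf23 ranged over 0.12 to 0.27 in CD11c-positive NASH cells, -0.09 to 0.02 in CD11c-negative NASH cells and 0.31 to 0.51 in wild-type cells, 3 separate bands. Its change was -0.45 ± 0.0431 in CD11c-negative and -0.19 ± 0.0431 in CD11c-positive NASH cells (limma adjusted p = 2.5e-07 and 0.00116), and 0.26 ± 0.0431 within NASH (0.000159). Its other probe was well above background on 1, 0 and 2 arrays of CD11c-positive NASH, CD11c-negative NASH and wild-type cells, and was not kept. Tnfrsf22 passed in no comparison by its brighter probe (0.07, 0.13 and 0.20), whereas its other probe was lower in both NASH populations against wild-type cells (-0.49 and -0.32, limma adjusted p = 0.000379 and 0.0088). These are near relatives in sequence and position, and whether the probes tell them apart was not tested.

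Tnfrsf11b (osteoprotegerin, a secreted decoy) and Tnfrsf8 (CD30) were not well above background on any array, and Tnfrsf19 was on at most 3 arrays of a group, so that none of these was tested.

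**Figure D3:**
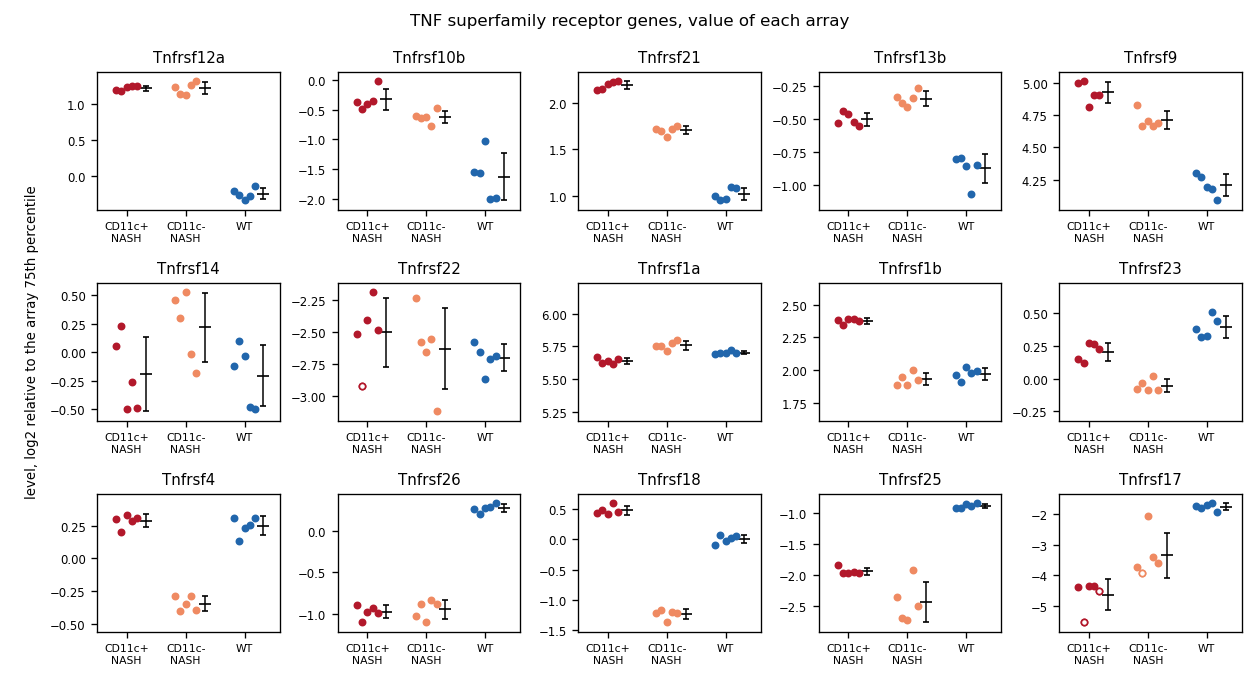
Level of each tested receptor on every array, log2 relative to the array's 75th percentile, in CD11c-positive NASH (red), CD11c-negative NASH (orange) and wild-type cells (blue); bars are the mean ± SD of 5 arrays and open circles are arrays not well above background. Tnfrsf12a and Tnfrsf21 sit above wild-type cells in both NASH populations, Tnfrsf26 sits below, and Tnfrsf18 and Tnfrsf4 are lowest in CD11c-negative NASH cells.

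Read as ligand and receptor pairs in CD11c-negative NASH against wild-type cells, both partners rose for CD137 (Tnfsf9 1.19, Tnfrsf9 0.50), for TWEAK and Fn14 (Tnfsf12 0.33, Tnfrsf12a 1.47) and for BAFF and TACI (Tnfsf13b 0.82, Tnfrsf13b 0.53). The ligand rose and the receptor fell for GITR (Tnfsf18 2.98, Tnfrsf18 -1.24) and for TL1A and death receptor 3 (Tnfsf15 1.14, Tnfrsf25 -1.55). BAFF and APRIL have a further receptor here, BCMA, which fell (Tnfrsf17 -1.59). For TRAIL the ligand fell and the death receptor rose (Tnfsf10 -0.79, Tnfrsf10b 1.01). For LIGHT and HVEM the ligand fell (Tnfsf14 -0.57) and the receptor was called higher by 1 of its 2 probes (Tnfrsf14 0.43 and -0.08). In CD11c-positive against CD11c-negative NASH cells the GITR pair was reversed, with Tnfsf18 lower (-0.95) and Tnfrsf18 higher (1.71), whereas both CD137 partners were higher (0.28 and 0.22). These pairs are measured in 1 cell preparation, and ligand and receptor RNA may come from different cells in it.

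**Figure D4:**
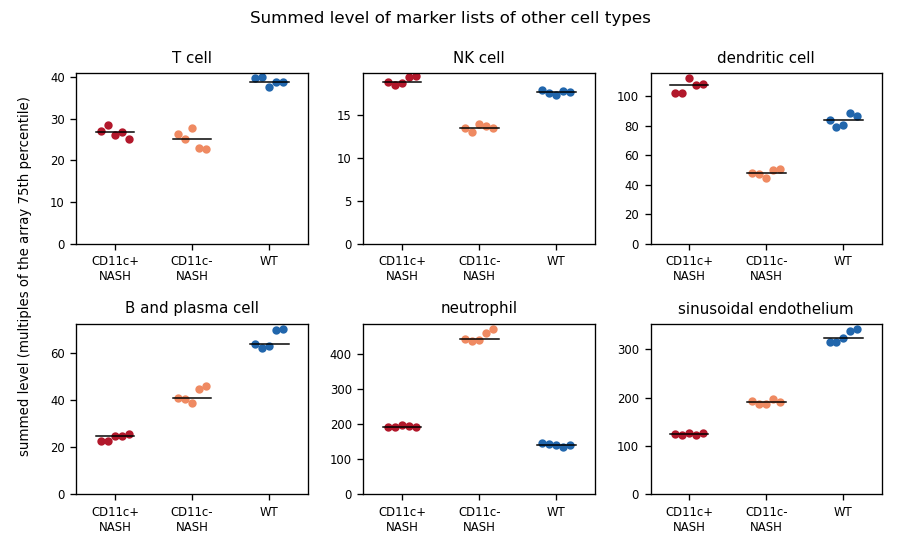
Summed level of marker lists of other cell types on every array, in multiples of the array's 75th percentile, for CD11c-positive NASH (red), CD11c-negative NASH (orange) and wild-type cells (blue); the black line is the median of 5 arrays. By sum, dendritic and NK cell markers are lowest in CD11c-negative NASH cells, neutrophil markers are highest there, and B cell and endothelial markers are highest in wild-type cells.

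The remaining marker lists also differed between groups. Monocyte markers, in the same order of groups as Tnfsf18 and with 5 of 6 on the array and above background, summed to 97.9 to 104 in CD11c-positive NASH cells, 167 to 182 in CD11c-negative NASH cells and 75.9 to 81.9 in wild-type cells. Macrophage markers, in the same order as Tnfsf10 and with 9 of 10 on the array and above background, summed to 1239 to 1323, 1505 to 1643 and 2210 to 2405 in CD11c-positive NASH, CD11c-negative NASH and wild-type cells. Not all of them fell: in CD11c-negative NASH against wild-type cells 6 fell, Itgax (1.72) and Adgre1 (0.40) rose and Csf1r (0.05) did not pass, and in CD11c-positive NASH cells 7 fell, Itgax rose by 3.08 and Adgre1 (-0.03) did not pass. Stellate cell markers, 6 of 7 with Des not above background, summed to 6.48 to 6.88, 8.89 to 9.60 and 6.22 to 6.88, and the collagen gene Col1a1 averaged -0.13, -0.46 and -1.87. Cholangiocyte markers were above background for at most 2 of 4 genes and summed to at most 0.172, Krt19 being well above background on 0, 2 and 2 arrays. The hepatocyte gene Alb averaged 3.21, 3.31 and 4.50 in the same order of groups.

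Of the ligands with other names, Tnf, Ltb and Fasl were tested, 3 of 7. Tnf rose by 0.98 in CD11c-negative and 0.88 in CD11c-positive NASH cells against wild-type cells. Fasl, which encodes the ligand of Fas carried by cytotoxic lymphocytes, fell by 1.10 in CD11c-negative NASH cells and was 0.92 higher in CD11c-positive cells within NASH, where no ligand of the list fell. Ltb, a chain of lymphotoxin, fell by 0.86 in CD11c-negative and 0.37 in CD11c-positive NASH cells against wild-type cells. Of the receptors with other names, 6 of 8 were tested, and 2 rose, 2 fell and 2 did not pass in CD11c-negative NASH cells against wild-type cells, 66.7% called against 76.8% of all genes, led by Cd40 (0.50) and Cd27 (-0.97). Against wild-type cells, CD11c-positive NASH cells also had 2 higher and 2 lower, 66.7% against 77.6%, led by Relt (0.25) and Cd27 (-0.75). Within NASH 2 were higher and 3 lower, 83.3% against 53.1%, led by Ngfr (0.39) and Fas (-0.38).

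Genes acting below the receptors were counted from lists put together by hand from textbook knowledge. Of 15 TRAF and death-domain adaptors, 5 rose, 4 fell and 6 did not pass in CD11c-negative NASH cells against wild-type cells (60% called, against 76.8% of all genes), with log2 changes from 0.33 for Traf6 to -0.84 for Traf4. CD11c-positive NASH cells had 10 higher, 3 lower and 2 not passing (86.7%, against 77.6% of all genes), from Traf1, an adaptor induced by NF-kB, at 1.37 to Rnf31, a subunit of the linear ubiquitin ligase, at -0.78. Within NASH 5 were higher, 2 lower and 8 did not pass (46.7%, against 53.1% of all genes), from Traf1 at 1.44 to Tank at -0.26. Of 19 genes of the NF-kB module, 13 rose, 2 fell and 4 did not pass in CD11c-negative NASH cells (78.9%, against 76.8% of all genes), from Tnfaip3, the A20 brake on NF-kB, at 1.71 to Cyld, a deubiquitinase of the pathway, at -0.39. In CD11c-positive NASH cells against wild-type cells 14 rose and 1 fell (78.9%, against 77.6% of all genes), with the same genes at the ends (1.72 and -0.38). Within NASH 5 were higher, 2 lower and 12 did not pass (36.8%, against 53.1% of all genes), from Map3k14 at 0.40 to Nfkbia at -0.50.

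Of 11 genes of the death machinery, 5 rose, 5 fell and 1 did not pass in CD11c-negative NASH cells against wild-type cells (90.9% called, against 76.8% of all genes), with log2 changes from 0.82 for Cflar, an inhibitor of caspase 8, to -0.71 for Ripk3, a kinase of necroptosis. The CD11c-positive NASH cells had 5 higher, 4 lower and 2 not passing, 81.8% against 77.6% of all genes, with the largest rise for Cflar at 0.58. Within NASH 2 were higher and 5 lower (63.6%, against 53.1% of all genes), from Casp8 at 0.19 to Mlkl at -0.42. Of 8 genes of ectodomain release, the cutting of ligands and receptors from the membrane, 6 rose, 1 fell and 1 did not pass in CD11c-negative NASH cells (87.5%, against 76.8% of all genes), and 5 rose, 1 fell and 2 did not pass in CD11c-positive NASH cells (75%, against 77.6%), both against wild-type cells. Adam8, a metalloprotease, rose by 1.31 in CD11c-negative and by 2.66 in CD11c-positive NASH cells and was 1.35 higher in CD11c-positive cells within NASH. Timp3, an inhibitor of these proteases, fell by 1.09 in CD11c-negative and 1.59 in CD11c-positive NASH cells and had a change of -0.49 within NASH, where 3 genes of the list were higher and 1 lower (50%, against 53.1% of all genes).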

How the data were processed

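Cy3-labelled RNA from 15 one-colour Agilent arrays in 3 groups of 5 was analysed. The deposited intensity values are processed spot signals made by the authors with Agilent Feature Extraction 10.7.3.1, per the submitters' processing notes and per the file headers. The deposited log2 table differs from the same signals, scaled on the 75th percentile and centred on the wild-type median, by a median of 0.00146, and it served as an alternative. Each array has 62976 spots, of which 3671 control spots and the spots marked as outliers were left out, and no spot was saturated. The log2 signals of the spots of 1 probe were averaged, and each array's 75th percentile was subtracted. Of 55681 probes, 26582 were named through RefSeq accessions, and the probes kept (28175) were well above background on at least 4 of 5 arrays of a group. The brightest kept probe stood for its gene, which gave 13390 genes, 3329 of them with more than 1 kept probe and 12 with a missing value. Group means were compared over all 15 arrays with limma 3.58.1 (lmFit, eBayes; R 4.3.3), two-sided, and p-values were adjusted by Benjamini-Hochberg over all genes tested. Calls needed an adjusted p under 0.05, and a further count a 2-fold change. The method was tested on simulated data.

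The arrays lie on 2 slides (8 and 7 arrays, each with all groups), and slide was tried as a block and by slide. The other alternatives were normexp on the median spot and background intensities (offset 50), quantile normalization, other probe filters, the mean of a gene's probes, the other kept probe, the replicate block, a trended and robust prior, only the groups compared, and leaving out each array. Every member was named where measured, together with the largest called rise and fall of each pathway list per comparison and 1 marker of each other cell type. Some further markers were named where they did not follow the sum of their list. Members and lists were chosen with earlier results of these data known. Some items that these rules cover are not reported here. Motifs were searched in RefSeq promoter windows with pandas 2.3.3.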

Additional observations from a re-analysis of the deposited data

Results flagged for a closer look

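In the 72 sets of 5 arrays (24 tested members in 3 groups), 7 had an array whose gap to its nearest neighbour took up more of the group's range than the critical value of 0.71 allows. Chance alone marks about 1 in 20 such sets. Tnfrsf17 had 2 of them, CD11c-positive NASH replicate 2 at -5.54 (nearest -4.52), not well above background, and CD11c-negative NASH replicate 3 at -2.06 (nearest -3.39), the array without which its change within NASH fell short of 2-fold. In CD11c-positive NASH cells Tnfrsf25 was highest on replicate 1 at -1.84 (nearest -1.95). In CD11c-negative NASH cells Tnfrsf18 was lowest on replicate 3 at -1.37 (nearest -1.22), and Tnfrsf9 was highest on replicate 1 at 4.83 (nearest 4.70). In wild-type cells the array that stood apart was replicate 4 for both genes concerned: Tnfrsf13b was lowest there at -1.07 (nearest -0.861), and Tnfsf8 was highest at -3.07 (nearest -3.64).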

How the results depend on the processing

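The counts of members called, higher and lower kept within 1.5 times of their values under the alternatives run, except those given next. With normexp background correction, members at least 2-fold higher in CD11c-negative NASH against wild-type cells numbered 2 in place of 5, those at least 2-fold lower 0 in place of 4, and those at least 2-fold higher in CD11c-positive NASH against wild-type cells 3 in place of 6. The 1 member at least 2-fold lower in CD11c-positive than CD11c-negative NASH cells, Tnfrsf17, became 0 with normexp, on slide 2 alone, when only probes above background on all 15 arrays were kept (the gene then leaves the test, as do Tnfsf18, Tnfsf8 and Tnfrsf22, and 20 members remain) and without CD11c-negative replicate 3, so that leaving out arrays gave 0 to 1. On slide 1 alone 4 members in place of 7 were lower in that comparison. The causes of the other changes were not tested.

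Over single genes, 1873 values under an alternative kept their direction and side of the threshold, 47 lost the call, 17 gained it and 10 reversed. With normexp, Tnfsf8 within NASH became -0.0059. With quantile normalization Tnfrsf1a became -0.35 and Tnfsfm13 -0.083 in CD11c-negative NASH against wild-type cells, and Tnfsfm13 became -0.082 and Tnfsf12 -0.0065 in CD11c-positive NASH against wild-type cells. The other kept probe, an alternative chosen after seeing the data, gave -0.079 for Tnfrsf14, -0.00061 for Tnfrsf1a and -0.49 for Tnfrsf22 in CD11c-negative NASH against wild-type cells, 0.17 for Tnfsf12 within NASH and -0.32 for Tnfrsf22 in CD11c-positive NASH against wild-type cells. Under quantile normalization 48.4% of all called genes were higher in CD11c-negative NASH than wild-type cells, in place of 62.9%, and 53.5% in CD11c-positive NASH cells in place of 66.2%.

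The groups share replicate numbers 1 to 5. Same-numbered arrays correlated at -0.198 to 0.373 in their deviations from the group means, the negative values belonging to replicate 3 on different slides, so that the numbers are not taken to pair the samples. With the replicate block, the count of members called within NASH was 19 in place of 17, Tnfrsf14 (-0.41, limma adjusted p = 0.0113) and Tnfsf14 (0.25, 0.00901) being called there, and no other call of a member changed. Those same genes were called within NASH with slide as a block and without CD11c-negative replicate 5 or CD11c-positive replicate 2, and Tnfrsf10b (0.29) without wild-type replicate 3 (0.0358). Precision is limited by 5 arrays a group and, for dim probes, by signal near background.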
